A study of Mus musculus with 6 samples.

Results

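The SOCS family of mice comprises Socs1 to Socs7 and Cish, 8 genes that were taken by symbol from the gene count tables and followed across 3 Ikzf3 genotypes. All 8 were present among the 25239 genes listed, and all 8 passed the filter on low counts that left 12117 genes for testing. RNA was sequenced from splenic CD4+ T cells sorted as TCRβ+CD4+CD44-CD127+ from C57BL/6 mice. The mice carried Ikzf3 +/+, Ikzf3 +/N159S or Ikzf3 N159S/N159S, with 2 libraries per genotype. N159S is a missense allele of Ikzf3, which encodes Aiolos, a zinc finger transcription factor of the Ikaros family in lymphocytes. It was knocked into the germline, so every cell of a mutant mouse carried it and an effect within the T cells cannot be told apart from one of their surroundings. The age of the mice is not given in the sources used here, and the labels do not say whether each library came from 1 mouse. P-values measure the spread between these libraries.

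SOCS proteins close a negative feedback loop on cytokine signalling. A cytokine such as IL-7 or IL-2 activates Janus kinases on its receptor, these phosphorylate STAT proteins, and STATs induce several SOCS genes. The proteins made from them hold an SH2 domain, which binds phosphotyrosines of receptors and kinases, and a SOCS box, which recruits a ubiquitin ligase that marks the bound partner for degradation. SOCS1 and SOCS3 can also block kinase activity through a short inhibitory region. In naive CD4+ T cells this loop tunes the response to IL-7, the survival cytokine read by CD127, and in activated cells it shapes helper differentiation.

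Each library held 11696461 to 17317260 reads on genes, and 14803 to 18147 genes had at least 1 read. Within each genotype 1 library had more genes detected than the other. These were Ikzf3 +/+ replicate 1, Ikzf3 +/N159S replicate 2 and Ikzf3 N159S/N159S replicate 2. T cell markers were high throughout, with Cd4 at 681 to 994 CPM and Cd3e at 284 to 429 CPM, where CPM is the read count scaled to a common library size after TMM normalization. Transcripts of other cells were also read. The summed level of 8 B cell markers was 357 to 592 CPM in Ikzf3 +/N159S. It was 151 to 225 CPM in Ikzf3 +/+ and 99.2 to 148 CPM in Ikzf3 N159S/N159S. The markers did not all move together. In Ikzf3 +/N159S against Ikzf3 +/+, 7 of the 8 were higher and 1 was lower. Of these, 4 were called higher and 1 lower, against 1.75% of all tested genes called. Xist was at 731 and 824 CPM in Ikzf3 +/N159S and at 0.773 to 1.98 CPM in the other 4 libraries. The 4 Y-linked transcripts examined, Ddx3y, Eif2s3y, Kdm5d and Uty, were called lower in Ikzf3 +/N159S. The heterozygous libraries thus differed from the rest in sex-linked transcripts, and in Ikzf3 +/N159S genotype and this difference cannot be told apart. Ikzf3 itself was at 157 and 155 CPM in Ikzf3 +/+, 168 and 152 CPM in Ikzf3 +/N159S, and 197 and 203 CPM in Ikzf3 N159S/N159S. It rose in Ikzf3 N159S/N159S by a log2 fold change of 0.36 (SE 0.09, edgeR quasi-likelihood FDR = 0.049), a call that 7 of 15 alternatives lost, with FDR up to 0.26. A missense allele leaves the transcript in place, so its level does not check the labels.

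In Ikzf3 N159S/N159S T cells, Socs3 and Socs5 rose, by 1.73-fold and 1.90-fold over Ikzf3 +/+. No member fell, in this test or by DESeq2. The other 6 members did not pass the threshold, which was a false discovery rate (FDR) under 0.05 in edgeR's quasi-likelihood test, with p-values corrected by the Benjamini-Hochberg method across the 12117 genes. Of all tested genes, 5.26% were called in this comparison, 3.14% as higher. The 2 libraries of the mutant lay above both Ikzf3 +/+ libraries for 5 of 8 members, where 24.3% of all tested genes did so. The fitted log2 fold change was above 0 for 7 of 8 members, with a median of 0.28 over the family and 4e-04 over all tested genes. In Ikzf3 +/N159S no member was called by this test or by DESeq2, against 1.75% of all tested genes. Its levels of Socs3 and Socs5 lay between those of the other genotypes.

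**Figure D1:**
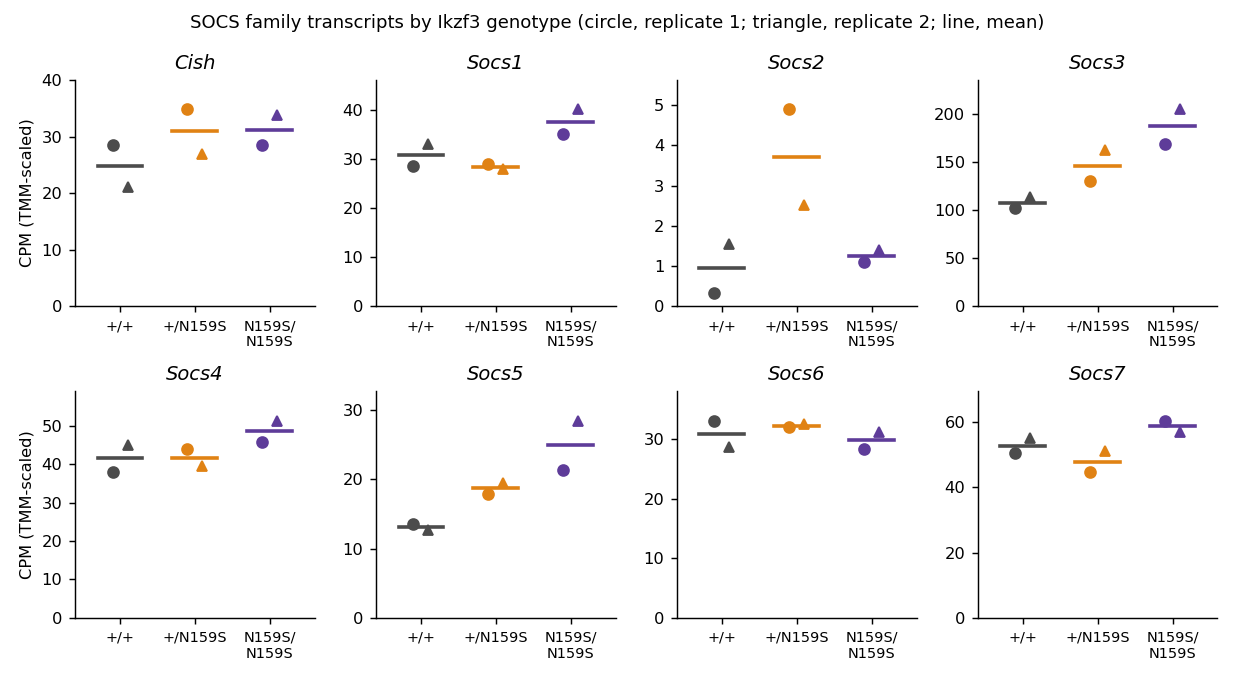
Level of each SOCS family transcript in CPM (vertical axis, from 0, a separate scale per gene) in the 6 libraries by Ikzf3 genotype, with circles for replicate 1, triangles for replicate 2 and lines for the mean of 2. Socs3 and Socs5 step up from Ikzf3 +/+ to Ikzf3 +/N159S to Ikzf3 N159S/N159S with no overlap between genotypes, while Socs2 is highest in the 2 Ikzf3 +/N159S libraries.

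Socs3 encodes the inhibitor that binds gp130, the receptor subunit shared by the IL-6 cytokines. It had the highest level per exonic length of the family in every library. Its level was 102 and 113 CPM in Ikzf3 +/+, 130 and 162 CPM in Ikzf3 +/N159S, and 169 and 205 CPM in Ikzf3 N159S/N159S. The genotypes did not overlap, and each library with an N159S allele lay above both Ikzf3 +/+ libraries. Means were 108 ± 7.5 CPM, 146 ± 22.8 CPM and 187 ± 25.1 CPM (SD, n = 2 each). Between the homozygous mutant and Ikzf3 +/+ the log2 fold change was 0.79 (SE 0.13, 95% interval 0.51 to 1.08, edgeR quasi-likelihood FDR = 0.00485), a 1.73-fold rise with an interval of 1.42 to 2.11. The log2 difference of Ikzf3 +/N159S from Ikzf3 +/+ was 0.44 (SE 0.13, interval 0.15 to 0.72) and missed the threshold (edgeR quasi-likelihood FDR = 0.126). Among the libraries with more genes detected Socs3 was 2-fold higher in the homozygous mutant than in Ikzf3 +/+, and among those with fewer it was 1.5-fold higher. Summed levels of markers of other cells also differed between the homozygous and Ikzf3 +/+ libraries. The summed level of 8 myeloid markers was 47.6 to 47.8 CPM in Ikzf3 +/+, 42.7 to 52.6 CPM in Ikzf3 +/N159S and 53.5 to 69.4 CPM in Ikzf3 N159S/N159S, and Lyz2 among them was at 2.51 to 8.65 CPM. For 8 markers of CD8 and NK cells the sums were 47.9 to 61.6 CPM, 43.4 to 50.9 CPM and 30.3 to 36.4 CPM in the same order. None of the 7 tested myeloid markers was called against Ikzf3 +/+ in either mutant genotype by edgeR's quasi-likelihood test. In Ikzf3 N159S/N159S, 6 had a log2 difference above 0 and 1, Itgam, below. Lyz2 was at 3.43 and 8.65 CPM there, against 3.26 and 2.83 CPM in Ikzf3 +/+. Of the 5 tested CD8 and NK markers all were below 0, and only Cd8b1 was called. Cd8b1 went from 20.1 and 13.2 CPM to 3.14 and 2.05 CPM, while Prf1 overlapped. No marker of either list was at 0 in every library, and their part in the rise of Socs3 and Socs5 was not tested. Of the family's reads, Socs3 alone took 34.7% and 36.4% in Ikzf3 +/+, then 38.5% and 44.8% with 1 mutant allele, then 43.4% and 45.6% with 2.

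Socs5 encodes a member with a long N-terminal region, known for binding the IL-4 receptor and JAK1 and for its link to helper T cell differentiation. It was read at 13.6 and 12.7 CPM in Ikzf3 +/+, 17.9 and 19.5 CPM in Ikzf3 +/N159S, and 21.4 and 28.5 CPM in Ikzf3 N159S/N159S. As for Socs3, no 2 genotypes overlapped and the homozygous libraries were the highest. The log2 fold change of Ikzf3 N159S/N159S against Ikzf3 +/+ was 0.92 (SE 0.17, interval 0.55 to 1.30, edgeR quasi-likelihood FDR = 0.00909), or 1.90-fold with an interval of 1.46 to 2.46. This call was lost without Ikzf3 +/+ replicate 2 (log2 fold change 0.87, FDR = 0.0862) and without Ikzf3 N159S/N159S replicate 2 (log2 fold change 0.72, FDR = 0.0602, edgeR quasi-likelihood test), the library in which Socs5 was highest. In Ikzf3 +/N159S the log2 difference from Ikzf3 +/+ was 0.52 (SE 0.17, interval 0.14 to 0.90, FDR = 0.166 in the same test). Within the libraries with more genes detected the homozygous level was 2.10-fold that of Ikzf3 +/+, and within those with fewer it was 1.69-fold.

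In Ikzf3 +/N159S the fitted levels of both genes lay near the middle of the step, although neither difference from Ikzf3 +/+ passed the threshold. On the log2 scale the fitted change of Ikzf3 +/N159S was a share of 0.551 of the homozygous change for Socs3 and 0.56 for Socs5. The difference between the heterozygote and the midpoint of both other groups was 0.041 for Socs3 (interval -0.20 to 0.28) and 0.055 for Socs5 (interval -0.26 to 0.37) on that scale. Both intervals include 0, and their widths leave room for a heterozygous level off the middle in either direction. The heterozygous libraries also differed from the rest in sex-linked transcripts, and genotype cannot be told apart from that difference here. Departures were called for 1.03% of all tested genes, and for none of the 8 members by edgeR's quasi-likelihood test or by DESeq2, 3 of them having an unadjusted p under 0.05 (Socs1, Socs2 and Socs7), against 11.5% of all tested genes.

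**Figure D2:**
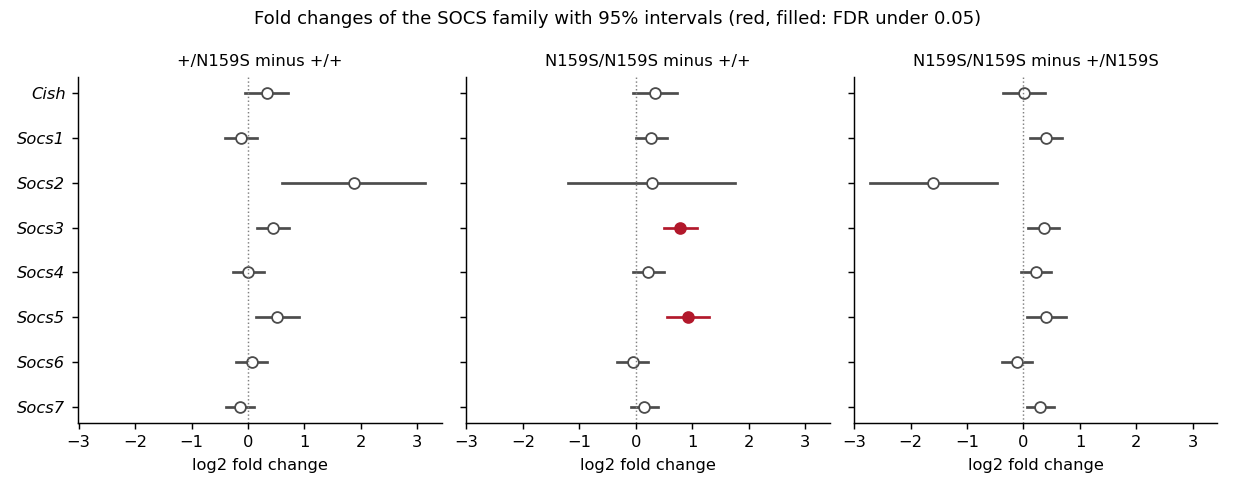
Log2 fold changes of the 8 members (horizontal axis) with 95% intervals for Ikzf3 +/N159S against Ikzf3 +/+, Ikzf3 N159S/N159S against Ikzf3 +/+, and Ikzf3 N159S/N159S against Ikzf3 +/N159S, with filled red points for an FDR under 0.05. Red points appear only in the middle panel, for Socs3 at 0.79 and Socs5 at 0.92, and the widest intervals belong to Socs2.

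Cish encodes CIS, an inhibitor strongly induced by STAT5 that acts on receptors of the common gamma chain family and on TCR signalling. Its levels were 28.5 and 21.1 CPM in Ikzf3 +/+, 34.8 and 27.0 CPM in Ikzf3 +/N159S, and 28.5 and 33.9 CPM in Ikzf3 N159S/N159S. The 3 genotypes overlapped, with Ikzf3 +/+ replicate 2 as the lowest library. The log2 difference of the homozygous mutant from Ikzf3 +/+ was 0.34 (SE 0.18, interval -0.05 to 0.72, edgeR quasi-likelihood FDR = 0.353), so a rise as large as that of Socs3 lay outside the interval by a small margin only. Cish overlaps Gm17040 and Gm17041 on the other strand, and whether reads were counted by strand is not given in the sources used here, which leaves its counts uncertain to that extent.

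Socs1 encodes the main inhibitor of interferon gamma and common gamma chain signalling in T cells. It was read at 28.6 and 33.0 CPM in Ikzf3 +/+, 28.9 and 27.9 CPM in Ikzf3 +/N159S, and 35.0 and 40.1 CPM in Ikzf3 N159S/N159S. The homozygous libraries were the highest and the heterozygous ones lay at the lower end of Ikzf3 +/+. The log2 difference between homozygous mutant and Ikzf3 +/+ was 0.28 (SE 0.13, interval -0.003 to 0.56, edgeR quasi-likelihood FDR = 0.277). Against Ikzf3 +/N159S it was 0.40 (SE 0.13, interval 0.12 to 0.68, FDR = 0.181 in the same test).

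Socs2, the regulator of growth hormone signalling, had few reads, and its values carry wide counting error. Ikzf3 +/+ gave 4 and 23 reads, Ikzf3 +/N159S gave 83 and 39, and Ikzf3 N159S/N159S gave 19 and 19. In CPM these were 0.344 and 1.55, then 4.90 and 2.51, then 1.11 and 1.39. Both heterozygous libraries lay above the other 4, and the 2 Ikzf3 +/+ libraries stood furthest apart relative to their mean. The log2 difference of Ikzf3 +/N159S from Ikzf3 +/+ was 1.88 (SE 0.58, interval 0.61 to 3.14, edgeR quasi-likelihood FDR = 0.102), and its departure from the midpoint of Ikzf3 +/+ and Ikzf3 N159S/N159S was 1.74 (SE 0.43, interval 0.80 to 2.68, FDR = 0.0854). Neither passed the threshold. Leaving out 1 library moved the first from 1.27 to 3.42 and the second from 1.16 to 2.51 on the log2 scale. The heterozygous libraries that were high in Socs2 were also those with more B cell markers, as above. Between those 2 libraries the order was opposite, with Socs2 at 4.90 and 2.51 CPM and the B cell sum at 357 and 592 CPM. Summed levels there of 7 regulatory T cell markers were 258 to 274 CPM, against 196 to 208 CPM in Ikzf3 +/+ and 170 to 192 CPM in Ikzf3 N159S/N159S. Without Izumo1r, which alone was at 79.9 and 89.1 CPM in Ikzf3 +/+ and 52.5 and 39.9 CPM in Ikzf3 N159S/N159S, the other 6 summed to 177 to 203 CPM, against 116 to 119 CPM and 130 to 139 CPM. For 9 effector and memory T cell markers they were 129 to 145 CPM, against 117 to 119 CPM and 66.7 to 78.3 CPM. Of the 8 tested on that list, 6 had a log2 difference of Ikzf3 +/N159S from Ikzf3 +/+ above 0 and 2 below. None of these 3 lists held a marker at 0 in every library, and their part in the level of Socs2 was not tested. In bulk RNA of this kind, more cells of a type and more RNA per cell cannot be told apart. For Socs2 as well, heterozygous genotype cannot be told apart from the difference in sex-linked transcripts.

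Socs4 and Socs5 are the most closely related pair of the family, and Socs4 is linked to the EGF receptor. Socs4 was at 38.1 and 45.1 CPM in Ikzf3 +/+, 44.0 and 39.5 CPM in Ikzf3 +/N159S, and 45.9 and 51.4 CPM in Ikzf3 N159S/N159S. The homozygous libraries were again the highest, but the gap to the next library was small. The log2 difference from Ikzf3 +/+ was 0.22 (SE 0.12, interval -0.05 to 0.49, edgeR quasi-likelihood FDR = 0.398), and that of Ikzf3 +/N159S was 0.0017 (interval -0.27 to 0.28). The ratio of Socs5 reads to Socs4 reads was 0.356 and 0.28 in Ikzf3 +/+, then 0.408 and 0.493 with 1 mutant allele, then 0.466 and 0.554 with 2. The ratio was thus higher in each library with an N159S allele than in both without.

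Socs6 and Socs7 form another closely related pair, known for binding insulin signalling and adaptor proteins more than cytokine receptors. Socs6 was at 33.1 and 28.7 CPM in Ikzf3 +/+, 31.9 and 32.5 CPM in Ikzf3 +/N159S, and 28.3 and 31.2 CPM in Ikzf3 N159S/N159S. The homozygous and Ikzf3 +/+ libraries overlapped, and the log2 difference between them was -0.053 (SE 0.13, interval -0.33 to 0.22). Socs7 was at 50.5 and 55.2 CPM, then 44.7 and 51.1 CPM, then 60.5 and 57.1 CPM in the same order of genotypes. Its homozygous libraries were above both Ikzf3 +/+ libraries, with a log2 difference of 0.15 (SE 0.11, interval -0.09 to 0.40). For both genes a change as large as that fitted for Socs3 lay outside the interval. Socs7 lies on chromosome 11, 1066 kb from Ikzf3, and Socs3 lies on the same chromosome, 19420 kb away. The 6 other members are on other chromosomes.

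Between Ikzf3 N159S/N159S and Ikzf3 +/N159S no member was called by edgeR's quasi-likelihood test or by DESeq2, and 1.66% of all tested genes were called by the first. The homozygous libraries were above both heterozygous ones for Socs1, Socs3, Socs4, Socs5 and Socs7, 5 of 8 members where 19.5% of all tested genes did so, and below both for Socs2 and Socs6, 2 of 8 members where 21.6% did. An unadjusted p under 0.05 was reached by 5 of 8 members here, against 12.0% of all tested genes. For Ikzf3 +/N159S against Ikzf3 +/+ it was reached by 3 of 8, against 16.3%, namely Socs2, Socs3 and Socs5. These 3 were also the members whose heterozygous libraries lay above both Ikzf3 +/+ libraries, as 25.0% of all tested genes did. With a model term for the split of libraries by genes detected, the calls by edgeR's quasi-likelihood test in Ikzf3 +/N159S became 3, with FDR = 0.00474 for Socs2, 0.00376 for Socs3 and 0.0248 for Socs5, while the share of all tested genes called went to 11.7%. That split was itself read from the libraries and is not in their labels.

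Per exonic length, Socs3 stood above the other members and Socs2 below them. In RPKM, which is CPM per kilobase of exon, Ikzf3 +/+ T cells held Socs3 at 42.2 ± 2.93, Socs1 at 23.0 ± 2.34, Cish at 8.22 ± 1.75, Socs7 at 7.53 ± 0.47, Socs4 at 6.05 ± 0.721, Socs6 at 5.03 ± 0.499, Socs5 at 2.94 ± 0.146 and Socs2 at 0.346 ± 0.311 (SD, n = 2). In this order only the neighbours Cish and Socs7 overlapped in range. In Ikzf3 N159S/N159S the order was the same except that Socs5, at 5.60 ± 1.12 RPKM, came before Socs6, at 4.84 ± 0.337 RPKM, with overlapping ranges. Levels of Socs1 and of the middle members depend on the exon length used. With the exons of the transcripts matched to RefSeq alone, Socs1 was at 10.6 RPKM and Socs6 at 10.6 RPKM in Ikzf3 +/+ with overlapping ranges. In Ikzf3 +/N159S Socs6 then stood above Socs1, at 9.76 RPKM, with no overlap, while Socs3 stayed first and Socs2 last. For Socs1 this length, 2908 bases in place of 1340, takes in exons beyond the RefSeq gene span, where reads may not have been counted. Its lower level and its place beside Socs6 by that length are thus uncertain.

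**Figure D3:**
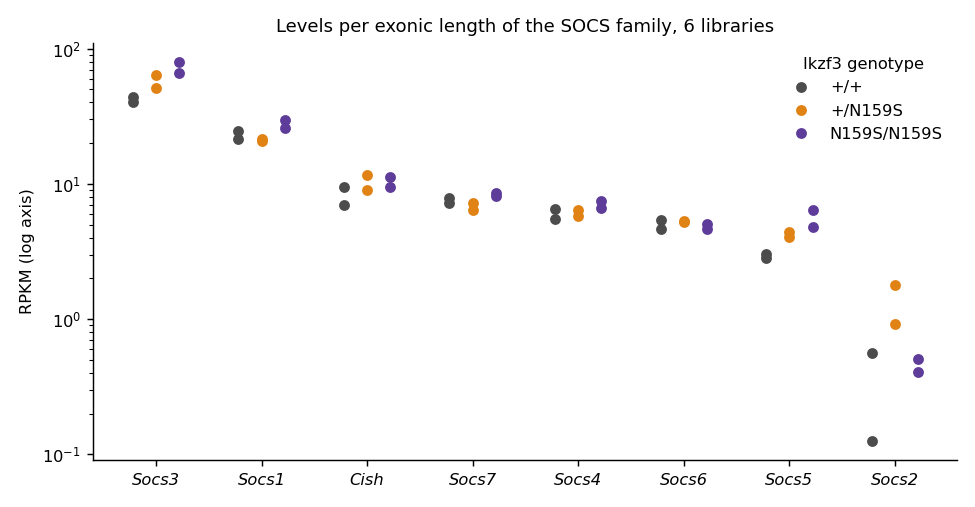
Level per exonic length of each member in RPKM (vertical axis, logarithmic) in the 6 libraries, in order of the mean and coloured by Ikzf3 genotype. Socs3 is the highest in every library, at 42.2 RPKM on average in Ikzf3 +/+ and 73.2 RPKM in Ikzf3 N159S/N159S, and Socs2 the lowest.

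Summed over the family, the level was 295 and 310 CPM in Ikzf3 +/+, 337 and 362 CPM in Ikzf3 +/N159S, and 390 and 448 CPM in Ikzf3 N159S/N159S. The 3 genotypes did not overlap in this sum, of which Socs3 was the largest part. Reads of Socs3 were 3.58 and 3.42 times those of Socs1 in Ikzf3 +/+, 4.50 and 5.81 times in Ikzf3 +/N159S, and 4.83 and 5.10 times in Ikzf3 N159S/N159S. So the balance between the 2 kinase-inhibiting members stood higher in each library with an N159S allele than in both without. The ratio of Socs3 to Cish did not separate the genotypes, at 3.59 and 5.36, then 3.73 and 6.00, then 5.94 and 6.04.

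Promoter windows were read for the 4 members that the RefSeq promoter table of GRCm38.p6 held, Cish, Socs1, Socs3 and Socs4. They were searched for TTCNNNGAA, the palindrome that STAT proteins bind, the GAAA repeat of interferon-responsive elements (GAAA, 2 bases of any kind and GAAA again), and TGGGAA, the core of Ikaros family sites, each on both strands. Over the 32851 windows of the table, all of 250 bases before to 50 bases after a start site, 8.3% held TTCNNNGAA, 3.44% held the GAAA repeat and 25.6% held TGGGAA. Cish held 2 TTCNNNGAA matches at its start site, Socs3 held 1 at position -154, and Socs1 held 2 overlapping matches of the GAAA repeat at -83 and -77 and 1 TGGGAA at -169. Socs4 held none of the 3 motifs. The printed stretches are those that hold the TTCNNNGAA and GAAA repeat matches, which are in capitals. They lie at chr9:107296654-107296683 on the plus strand for Cish, chr11:117969367-117969616 on the minus strand for Socs3, and chr16:10785537-10785786 on the minus strand for Socs1. The Socs3 window lies before the start site that the table gives and within the longer span annotated for the gene.
Cish: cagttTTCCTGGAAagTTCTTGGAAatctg
Socs3: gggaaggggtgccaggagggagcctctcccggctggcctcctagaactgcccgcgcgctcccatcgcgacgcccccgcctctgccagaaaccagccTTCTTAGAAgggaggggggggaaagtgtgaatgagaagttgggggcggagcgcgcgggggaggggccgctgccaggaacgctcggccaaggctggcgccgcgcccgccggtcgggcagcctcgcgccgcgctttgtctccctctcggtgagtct
Socs1: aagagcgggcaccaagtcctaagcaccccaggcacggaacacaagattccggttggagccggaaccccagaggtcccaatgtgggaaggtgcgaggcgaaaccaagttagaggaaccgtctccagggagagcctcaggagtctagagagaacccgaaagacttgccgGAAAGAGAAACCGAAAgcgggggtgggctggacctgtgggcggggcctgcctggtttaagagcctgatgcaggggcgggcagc

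Counts on the gene lists that follow stand beside the 5.26% of all tested genes called in Ikzf3 N159S/N159S and the 18.3% with an unadjusted p under 0.05. Among the 11 Janus kinases and STATs, which stand upstream of the family, 1 rose and none fell in Ikzf3 N159S/N159S. The median log2 fold change over the list was 0.00052, and 2 of 11 had an unadjusted p under 0.05. The gene that rose was Jak3, the kinase bound to the common gamma chain. It was at 166 and 224 CPM in Ikzf3 +/+, 270 and 264 CPM in Ikzf3 +/N159S, and 344 and 323 CPM in Ikzf3 N159S/N159S, again with no overlap between the 3 genotypes. The log2 fold change of the homozygous mutant was 0.78 (SE 0.13, interval 0.50 to 1.06, edgeR quasi-likelihood FDR = 0.00493). Jak1 (log2 difference -0.11, interval -0.33 to 0.11), Stat5a (0.036, interval -0.19 to 0.26) and Stat5b (-0.0043, interval -0.23 to 0.22) did not pass. Stat3, the factor that drives Socs3 downstream of gp130, stood at 232 and 266 CPM in Ikzf3 +/+ and 307 and 340 CPM in Ikzf3 N159S/N159S, a log2 difference of 0.38 (SE 0.10, interval 0.15 to 0.60) that missed the threshold (edgeR quasi-likelihood FDR = 0.0625). DESeq2 did call it, and Stat3 was named after its values were seen. Il6st, the gene of gp130, went the other way, at 247 and 258 CPM in Ikzf3 +/+ and 202 and 201 CPM in Ikzf3 N159S/N159S. Its log2 difference was -0.33 (SE 0.10, interval -0.54 to -0.11, edgeR quasi-likelihood FDR = 0.0871). For Il6ra, the IL-6 receptor chain, it was -0.16 (interval -0.38 to 0.06). Both were also named after their values were seen, and the part of these genes in the level of Socs3 was not tested.

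Of 20 receptors that signal through Janus kinases, 1 rose and 3 fell in Ikzf3 N159S/N159S by edgeR's quasi-likelihood test, with a median log2 fold change of -0.19. DESeq2 called 6 of them, the same 4 and also Il2ra and Il7r, both lower. In the edgeR test, 9 of the 20 had an unadjusted p under 0.05, against 18.3% of all tested genes. Il2rb, the IL-2 and IL-15 receptor beta chain, was at 24.2 and 33.4 CPM in Ikzf3 +/+, 30.6 and 30.3 CPM in Ikzf3 +/N159S, and 10.4 and 9.67 CPM in Ikzf3 N159S/N159S. The homozygous libraries stood apart from the other 4, and the log2 fold change was -1.53 (SE 0.18, interval -1.91 to -1.14, edgeR quasi-likelihood FDR = 0.000436). Il2rb is also on the list of effector and memory markers, whose sum, lower in the homozygous libraries as given above, includes Il2rb itself. Of the 8 tested markers on that list, 2 were called lower, Icos and Il2rb. The log2 fold change was above 0 for 2 of them and below 0 for 6. The part of such cells in the level of Il2rb was not tested. Il10ra, an IL-10 receptor chain, fell by 0.61 on the log2 scale (SE 0.14, FDR = 0.0273), Ifngr2, an interferon gamma receptor chain, fell by 0.42 (SE 0.10, FDR = 0.0389), and Crlf2, the TSLP receptor, rose by 0.50 (SE 0.11, FDR = 0.0278) in the same edgeR test. Il7r, which encodes CD127 and was gated on in the sort, was at 1289 and 1217 CPM in Ikzf3 +/+, 886 and 899 CPM in Ikzf3 +/N159S, and 945 and 1027 CPM in Ikzf3 N159S/N159S. Both mutant genotypes lay below Ikzf3 +/+. It fell in Ikzf3 +/N159S by 0.49 on the log2 scale (SE 0.10, edgeR quasi-likelihood FDR = 0.0368), and in the homozygous mutant the log2 difference was -0.35 (SE 0.10, FDR = 0.0799). Il2ra, the IL-2 receptor alpha chain and a regulatory T cell marker, was at 8.85 and 9.55 CPM in Ikzf3 +/+, 15.5 and 12.7 CPM in Ikzf3 +/N159S, and 5.94 and 3.88 CPM in Ikzf3 N159S/N159S, so that the heterozygous libraries were the highest and the homozygous ones the lowest. Its log2 difference between homozygous mutant and Ikzf3 +/+ was -0.88 (SE 0.24, interval -1.42 to -0.35, edgeR quasi-likelihood FDR = 0.0585). It was called lower in the homozygous than in the heterozygous mutant, with a log2 fold change of -1.50 (SE 0.23, FDR = 0.00663 in the same test). Il2ra was named after its values were seen. Il2rg, the common gamma chain, differed by 0.13 on the log2 scale (interval -0.09 to 0.34) between the homozygous mutant and Ikzf3 +/+.

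**Figure D4:**
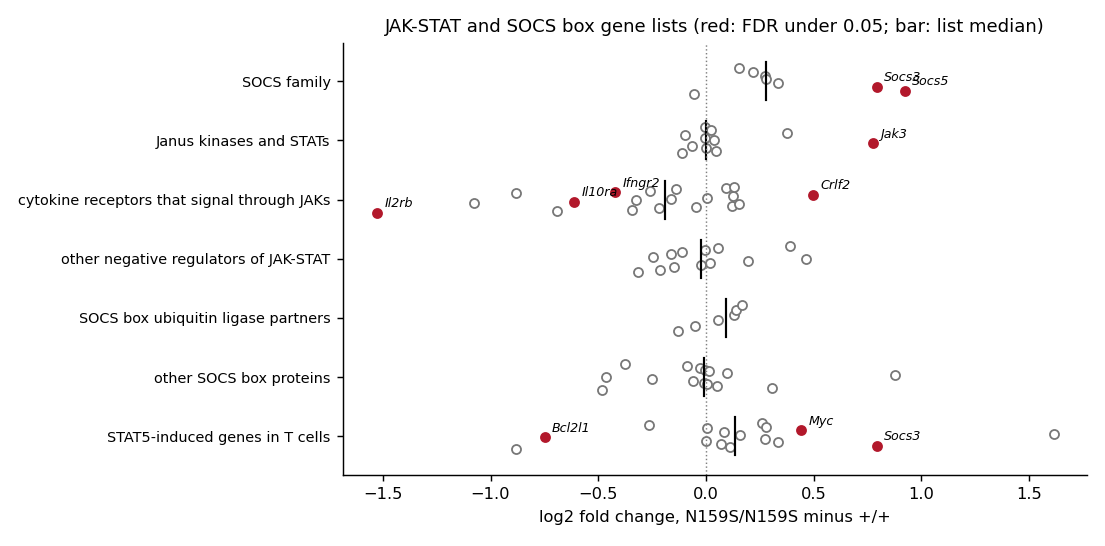
Log2 fold changes of Ikzf3 N159S/N159S against Ikzf3 +/+ (horizontal axis) for the tested genes of the SOCS family and 6 other lists, 1 point per gene, with black bars at the list medians and red, named points for an FDR under 0.05. The SOCS family has a median of 0.28 and 2 red points, the receptor list a median of -0.19 and red points on both sides of 0, and 3 lists have none. Cish, Socs1, Socs2 and Socs3 appear in the family and again in the list of genes induced by STAT5.

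The other brakes on the pathway held no call in Ikzf3 N159S/N159S by edgeR's quasi-likelihood test or by DESeq2. This applied to 13 of 13 negative regulators outside the family (PIAS proteins, phosphatases, Cbl proteins and others; median log2 fold change -0.023, with 3 at an unadjusted p under 0.05, against 18.3% of all tested genes), 6 of 6 measured ligase partners of the SOCS box (median 0.092, with 0 at such a p) and all 15 tested genes of 27 other SOCS box proteins (median -0.011, with 3 at such a p), which were mostly of the Asb and Spsb families. Of the last list, 12 genes did not pass the filter, and Asb9, Asb12 and Asb18 had no reads in any library. With 5.26% of all tested genes called, the lack of a call among 13, 6 or 15 genes does not set these lists apart. Of 16 tested genes known to be induced by STAT5 in T cells, 2 rose, Socs3 and Myc, and 1 fell, the survival gene Bcl2l1, by edgeR's quasi-likelihood test. DESeq2 called these 3 and also Il2ra, as lower. In the edgeR test 6 of the 16 had an unadjusted p under 0.05, against 18.3% of all tested genes. The log2 fold change was above 0 for 13 and below 0 for 3, with a median of 0.13. This list is not separate from the family, as it includes Cish, Socs1, Socs2 and Socs3. Myc, a driver of growth, was at 102 and 102 CPM in Ikzf3 +/+ and 133 and 143 CPM in Ikzf3 N159S/N159S (log2 fold change 0.44, SE 0.09, edgeR quasi-likelihood FDR = 0.0182), and Bcl2l1 fell by 0.75 on the log2 scale (SE 0.18, FDR = 0.0321). Shares of 1 called in 14 or 13 genes, as on the next 2 lists, are near the 5.26% called over all tested genes. Of 14 interferon response genes 1 rose, the GTPase gene Gbp2 (log2 fold change 0.43, SE 0.10, FDR = 0.0287 in the edgeR test). On that list 4 of 14 had an unadjusted p under 0.05. Of 13 tested immediate early genes 1 rose, the antiproliferative gene Btg2 (log2 fold change 0.49, SE 0.09, FDR = 0.011 in the same test). Here 6 of 13 had an unadjusted p under 0.05, above the 18.3% of all tested genes. Among these, Btg2, Jund and Nr4a1 were higher and Egr1, Egr2 and Egr3 were lower. Lef1, a transcription factor and naive CD4 T cell marker, fell by 0.60 on the log2 scale (SE 0.15, FDR = 0.0391 in the same test) in the homozygous mutant.

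With 1 library left out, which leaves fewer samples for the test, several of these calls no longer passed while their direction held. Over the 15 alternatives the homozygous log2 fold change was 0.58 to 1.01 for Jak3 and -1.73 to -1.26 for Il2rb, both always called. It was 0.40 to 0.49 for Myc, -0.90 to -0.60 for Bcl2l1, 0.38 to 0.49 for Gbp2, -0.68 to -0.53 for Il10ra and -0.47 to -0.38 for Ifngr2, and each of these lost its call without each of the 4 libraries compared. Crlf2 (0.41 to 0.60) and Lef1 (-0.78 to -0.44) lost theirs without either Ikzf3 +/+ library or Ikzf3 N159S/N159S replicate 1, and Btg2 (0.42 to 0.57) without Ikzf3 +/+ replicate 1 or either homozygous library. The replicate number as a block also took the FDR of Crlf2 to 0.0517, of Gbp2 to 0.057 and of Ifngr2 to 0.0707 by edgeR's quasi-likelihood test. For Il7r in Ikzf3 +/N159S the log2 fold change was -0.53 to -0.45, called under 8 of 15 alternatives and lost without each of the 4 libraries compared.

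The genes whose pattern over the 6 libraries was closest to that of a called member were read by Pearson's r of log2 CPM over 10412 genes with a mean of at least 1. For Socs3 these were Mvb12b (r = 0.993), Nckap1 (r = 0.989) and Gm37065 (r = 0.989), and for Socs5 they were Rragd (r = 0.994), Armh3 (r = 0.991) and Zbtb10 (r = 0.990). An r above 0.95 was reached by 65 genes for Socs3 and by 81 for Socs5. The same 3 genes were found for each with a smaller prior count. The 6 libraries share their genotypes and the split by genes detected, so r describes likeness only. A high r did not require a large change. Mvb12b, the closest to Socs3, was at 25.4 and 26.4 CPM in Ikzf3 +/+ and 29.0 and 31.2 CPM in Ikzf3 N159S/N159S, a log2 difference of 0.21 (edgeR quasi-likelihood FDR = 0.403), and Armh3 differed by 0.26 (FDR = 0.428). Nckap1, a subunit of the WAVE actin complex, went from 5.67 and 7.67 CPM in Ikzf3 +/+ to 13.2 and 16.9 CPM in Ikzf3 N159S/N159S. Rragd, a Rag GTPase of the mTORC1 pathway, went from 3.87 and 3.23 CPM to 8.79 and 13.0 CPM.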

How the data were processed

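Poly(A) RNA-seq of sorted splenic T cells was used, 2 libraries for each of 3 Ikzf3 genotypes. Reads were trimmed with Trimmomatic 0.38.1, mapped to mm10 with HISAT2 2.2.1 and counted on refGene genes with HTSeq 2.0.2, and the authors deposited whole-number counts per gene without normalization. Summary rows of uncounted reads (42.3 to 49.3% per library) were left out. Counts were analysed with edgeR 4.0.16 in R 4.3.3. Genes passed filterByExpr (minimum count 10, minimum total 15), and libraries were scaled by TMM. One quasi-likelihood model with 1 coefficient per genotype was fitted to all 6 libraries, and p-values were adjusted by Benjamini-Hochberg over 12117 genes. Intervals of 95% came from the same fit. Libraries of a genotype differed by more than sampling noise. RPKM used protein-coding exons of GENCODE M21 within the RefSeq gene span. The test was run on simulated counts with 200 genes changed 3-fold in Ikzf3 N159S/N159S and midway on the log2 scale in Ikzf3 +/N159S. It called 176 of these in Ikzf3 N159S/N159S against Ikzf3 +/+, with 11 false calls. In Ikzf3 +/N159S against Ikzf3 +/+ it called 3, and between the mutants 0, so calls in those comparisons were rarely reached there. The simulated dispersion was 0.05, a larger spread than in the data, where the square root of the common dispersion was 0.1. DESeq2 1.42.0, other filters, blocks and left-out libraries served as alternatives. Sequences came from RefSeq.

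The members and the gene lists were chosen with earlier results of these data known. Named were all members, Ikzf3, listed genes called against Ikzf3 +/+, a few genes of IL-7 signalling and defining markers whatever their test, and the 3 genes most like each called member. Of the sex-linked and cell type lists, the members that bear on a result are named, and 1 marker gene is not reported here.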

Additional observations from a re-analysis of the deposited data

How the results depend on the processing

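Socs3 was called higher in Ikzf3 N159S/N159S than in Ikzf3 +/+ under all 15 alternatives (FDR 9.7e-07 to 0.0445), and Socs5 under 13 of 15. The number of members called in that comparison was 1 to 2 when 1 library was left out (a lone library was taken to vary like the others). For Ikzf3 +/N159S against Ikzf3 +/+ it was 2 without a filter (Socs2 and Socs3), 2 with the likelihood ratio test (Socs2 and Socs3), 3 with the split by genes detected as a term, and 0 to 1 with a library left out, where Socs2 was called without Ikzf3 +/N159S replicate 2. For Ikzf3 N159S/N159S against Ikzf3 +/N159S it was 1 without a filter (Socs2, lower) and 3 with the split (Socs1 and Socs3 higher, Socs2 lower). For the departure from the midpoint it was 1 (Socs2) without a filter, 1 with the split and 1 with the likelihood ratio test, and 0 to 1 with a library left out. The cause was not tested. With at least 10 counts required in every library Socs2 was not tested.

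The replicate number used as a block left 2 members called in Ikzf3 N159S/N159S against Ikzf3 +/+ and 0 in the other 3 comparisons, and moved the genes called in the first from 637 to 514. Same-numbered libraries correlated at -0.167, -0.216 and 0.238. With 2 libraries per genotype these values mirror, up to sign, those of the split by genes detected, at 0.167, 0.216 and 0.238. They therefore cannot show whether libraries of the same number share more than the number. Over all alternatives, that comparison called 221 (without Ikzf3 +/+ replicate 2) to 1756 genes (with the split).

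Among log2 differences, the sign turned only in ones that had not passed the threshold. Socs4 in Ikzf3 +/N159S against Ikzf3 +/+ was -0.0074 by DESeq2 and -0.0089 with its size factors, and Cish between the mutants was -0.0025 with the split. With a library left out, ranges against Ikzf3 +/+ were -0.33 to 1.82 for Socs2 and -0.15 to 0.048 for Socs6 in Ikzf3 N159S/N159S, and -0.11 to 0.13 for Socs4 and -0.038 to 0.16 for Socs6 in Ikzf3 +/N159S. Cish between the mutants ranged from -0.17 to 0.21, and departures from the midpoint from -0.038 to 0.34 for Cish, -0.13 to 0.19 for Socs3 and -0.045 to 0.15 for Socs5. DESeq2 size factors left the order of RPKM levels in each genotype as it was. With 2 libraries per genotype and 4 to 83 reads, changes of Socs2 could not be placed within a narrow interval, and an exact permutation test of 2 against 2 libraries cannot go below p = 0.333.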
